A study of Mus musculus with 24 samples.

Results

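Protein-protected sites (PPSs) outside annotated genes were examined in MEL cells, a murine erythroleukemia line blocked at the proerythroblast stage that enters erythroid differentiation in DMSO. A PPS is a stretch of RNA whose read coverage was higher when proteins were still bound during nuclease digestion than when they had been removed first. Members were the PPSs that overlapped no GENCODE M21 gene body on either strand, after PPSs of 20 to 40 nt were left out. They numbered 13286 of 356432 PPSs. Day 0 had 3840 of 114907, day 2 had 4777 of 119487, and 4669 of 122038 were from day 4.

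The 24 libraries came from 3 time points of 1 cell line, day 0 (undifferentiated cells) and day 2 and day 4 of growth with 2% DMSO, with 2 biological replicates each. All cells were crosslinked with formaldehyde. Each replicate was split into footprint libraries (digested, then freed of protein) and structure-only libraries (the reverse order), and each of these was digested with an RNase that cuts single-stranded RNA (ssRNase) or one that cuts double-stranded RNA (dsRNase). A call compares a footprint library with its structure-only library, so each day had 4 call sets, named by nuclease and replicate. Each day's calls were merged into 1 list by the authors, and a PPS below counts for every replicate or nuclease whose calls it holds. Replicates therefore share PPSs, and their spread understates that of separate lists. The permutation tests below treat replicates as separate units, which the shared PPSs make them only in part. Read depth cannot be read from the lists.

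RNA polymerase II transcribes past the polyadenylation site before it terminates, so RNA downstream of a gene carries the strand of that gene. Such readthrough RNA is mostly unstable and nuclear. Other RNA outside annotated genes comes from enhancers, from unannotated long noncoding RNAs, from repeats and from 3′ ends that lie beyond the annotated ones. Gene annotations differ in where a gene ends, so "outside genes" is a statement about 1 annotation.

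Of the joined regions, 312 held a PPS with calls of both replicates at all 3 days. Of these, 99 were at most 150 nt long, lay outside RefSeq gene bodies and were considered for display. The central 32 nt of 32 of the 99 occurred once in the genome, and those of 67 occurred more than once. The following 7 regions are examples of short persistent sites and are not typical of the 312, whose median span was 173.5 nt with 22.0% soft-masked bases. The 7 are free of soft-masked repeats and are among those of the 99 with the highest summed scores, 5 of them with 1 genomic copy and the last 2 with several. Sequences are from GRCm38 (mm10), 5′ to 3′ on the strand of the PPS, with capitals for the bases covered by PPSs at all 3 days.
chr11:45806993-45807134, plus strand: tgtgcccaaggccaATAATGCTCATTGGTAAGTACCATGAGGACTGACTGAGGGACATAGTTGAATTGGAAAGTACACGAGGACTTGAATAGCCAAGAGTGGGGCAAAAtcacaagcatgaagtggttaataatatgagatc
chrY:90728342-90728480, plus strand: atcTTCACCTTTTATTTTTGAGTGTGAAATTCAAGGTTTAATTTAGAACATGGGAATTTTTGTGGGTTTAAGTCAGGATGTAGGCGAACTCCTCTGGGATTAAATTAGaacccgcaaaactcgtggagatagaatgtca
chr6:100186781-100186881, minus strand: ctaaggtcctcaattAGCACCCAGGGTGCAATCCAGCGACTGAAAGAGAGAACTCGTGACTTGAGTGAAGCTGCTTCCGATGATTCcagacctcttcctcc
chrX:102820455-102820548, plus strand: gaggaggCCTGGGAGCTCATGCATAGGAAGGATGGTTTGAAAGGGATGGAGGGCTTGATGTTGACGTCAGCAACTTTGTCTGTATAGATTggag
chr17:24798389-24798526, plus strand: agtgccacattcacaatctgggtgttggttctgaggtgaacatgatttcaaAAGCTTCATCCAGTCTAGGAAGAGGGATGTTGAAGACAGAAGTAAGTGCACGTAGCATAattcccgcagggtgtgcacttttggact
chr8:20123312-20123449, plus strand: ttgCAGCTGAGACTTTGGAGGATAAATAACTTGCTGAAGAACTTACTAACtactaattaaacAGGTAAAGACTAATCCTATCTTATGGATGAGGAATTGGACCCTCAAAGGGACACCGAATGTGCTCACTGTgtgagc
chr8:20582831-20582964, plus strand: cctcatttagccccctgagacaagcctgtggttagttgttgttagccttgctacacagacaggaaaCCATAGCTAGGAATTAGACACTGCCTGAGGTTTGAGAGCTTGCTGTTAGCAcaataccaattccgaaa

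The region on chromosome 6 lay 41684 nt past the end of Rybp, a polycomb subunit, inside a longer domain that is described further on. The region on chromosome X started 381 nt past Gm9126. The 2 chromosome 8 regions had 6 and 4 copies of their central 32 nt, and reads were allowed up to 10 alignments, so the locus of origin of such sites is uncertain. None of the 7 held AATAAA, the main polyadenylation signal, on the searched strand.

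Intergenic sites were a small part of each list although intergenic sequence made up 54.0% of the known bases of the genome. Undifferentiated cells had 3.34% of their PPSs there (Wilson 95% limits 3.24 and 3.45). Day 2 cells had 4.00% (limits 3.89 and 4.11), and day 4 cells 3.83% (limits 3.72 and 3.93). In the ssRNase call sets it was 4.00% and 3.89% at day 0, 4.60% and 4.48% at day 2, and 4.31% and 4.31% at day 4. In the dsRNase call sets it was 2.40% and 2.56% at day 0, 3.13% and 2.51% at day 2, and 3.80% and 3.71% at day 4. The ssRNase value was the higher one in every replicate of every day.

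**Figure D1:**
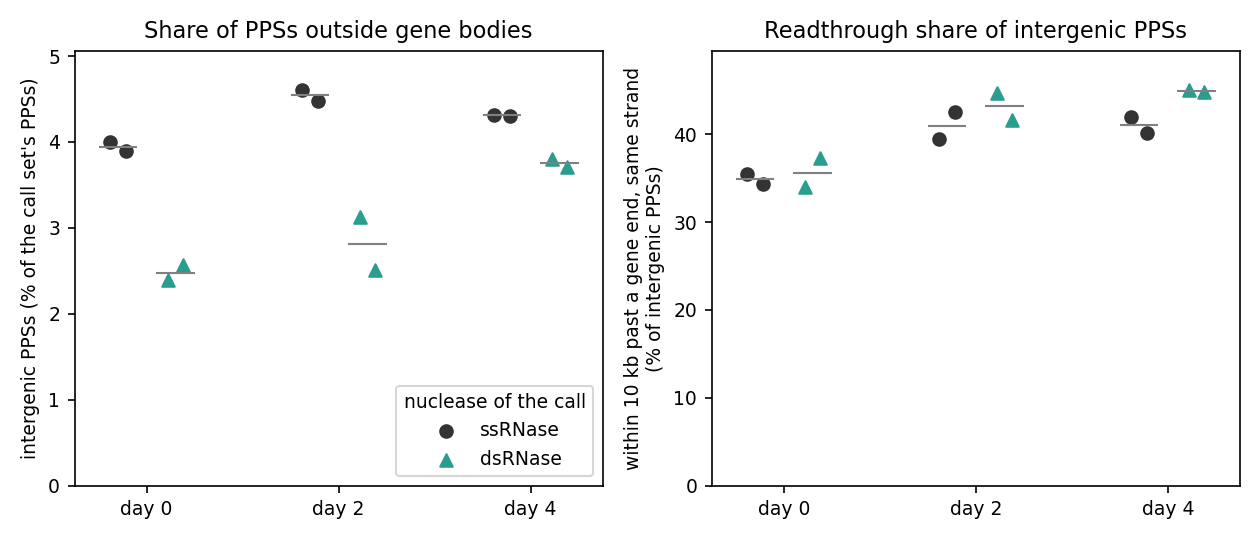
Each point is 1 call set and each grey line the mean of the 2 replicates. The left axis gives the percentage of PPSs outside gene bodies, and the right axis the percentage of intergenic PPSs within 10 kb past a gene end on the same strand. Intergenic shares of ssRNase lie between 3.89% and 4.60% and those of dsRNase between 2.40% and 3.80%.

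The ssRNase share averaged 4.27% ± 0.273 and the dsRNase share 3.02% ± 0.624 (SD, n = 6 replicates over 3 days). The difference, dsRNase minus ssRNase, was -1.25 points and negative in 6 of 6 pairs (exact sign-flip permutation test, two-sided, p = 0.03125, the smallest 6 pairs can give; Benjamini-Hochberg 0.0417 over 4 tested differences). Between day 0 and day 4 the share grew by 1.14 points among dsRNase PPSs (1.14 to 1.40 over the 4 pairs of replicates) and by 0.374 points among ssRNase PPSs (0.308 to 0.420). That gap between the nucleases was not tested. Over both nucleases the share was 0.656 points higher at day 2 than at day 0 (0.564 to 0.857 over the pairs) and 0.484 points higher at day 4 (0.450 to 0.588). All pairs pointed upward, but 2 replicates against 2 cannot go below an exact p of 0.333, so no test between days was made. The added members were not spread evenly over the genome. A domain past Rybp held 75, 291 and 313 members at the 3 days, and a chromosome 5 domain 18, 81 and 129. Both are described further on, and the share without them was not computed.

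The nucleases contributed unequally to the days. Of the members, 84.0% held an ssRNase call at day 0, 90.6% at day 2 and 65.3% at day 4, and 33.8%, 25.3% and 61.9% held a dsRNase call. Calls of both replicates were present in 34.0%, 35.4% and 39.9%. The members' median length was 64, 60 and 63 nt, against 63, 58 and 62 nt for genic PPSs. In most call sets 53.9% to 58.4% of members lay on the plus strand. The ssRNase set of day 0 replicate 2 held 69.8% plus-strand members and 66.8% plus-strand genic PPSs, and that of day 4 replicate 2 held 52.3% and 42.7%. The part of this imbalance in the results was not tested beyond the values without these replicates, which are given with the other settings.

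Sites past gene ends were more often on the strand of the gene than on the other strand. Within 10 kb past a gene end, members on the strand of the gene (sense) made up 37.4% of day 0 sites (1438 of 3840, Wilson 95% limits 35.9 and 39.0). They made up 43.4% of day 2 sites (2071 of 4777, limits 42.0 and 44.8) and 45.2% of day 4 sites (2112 of 4669, limits 43.8 and 46.7). On the opposite strand of the same windows the share was 19.5%, 21.1% and 19.5%. Sense exceeded antisense by 16.8 and 17.3 points in the day 0 replicates, 20.8 and 21.6 at day 2, and 24.5 and 23.4 at day 4. The mean excess was 20.7 ± 3.14 points (SD, n = 6), positive in 6 of 6 (exact sign-flip permutation test, two-sided, p = 0.03125, Benjamini-Hochberg 0.0417).

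Before gene starts the same comparison gave a smaller sense excess. Sense members within 10 kb before a start made up 23.5%, 24.3% and 23.3% of the 3 days, and antisense members 19.0%, 17.4% and 15.4%. The excess averaged 6.09 ± 1.65 points (SD, n = 6) and was positive in 6 of 6 (exact sign-flip permutation test, two-sided, p = 0.03125, Benjamini-Hochberg 0.0417). It was 1.60 points, with an exact p of 0.125, when only protein-coding and long noncoding genes (lncRNAs) were used as gene bodies. A further 37.0%, 34.1% and 35.4% of members lay over 10 kb from every gene start and end.

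Density made the distance dependence visible. In the first kb past gene ends, sense members numbered 12.5 per Mb of intergenic sequence at day 0, 17.5 at day 2 and 15.1 at day 4, while antisense members numbered 3.84, 5.33 and 4.14 per Mb. From 5 to 10 kb the sense densities were 2.05, 3.32 and 3.49 per Mb and the antisense densities 1.83, 2.43 and 2.26. Sense over antisense gave ratios there of 1.12, 1.36 and 1.54 in the order of the days. From 10 to 50 kb it was 0.687, 0.668 and 0.666. Each member enters the bins of both strands by its nearest end, so an excess in near bins lowers the ratio farther out. The far ratios therefore do not show where a sense excess stops.

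**Figure D2:**
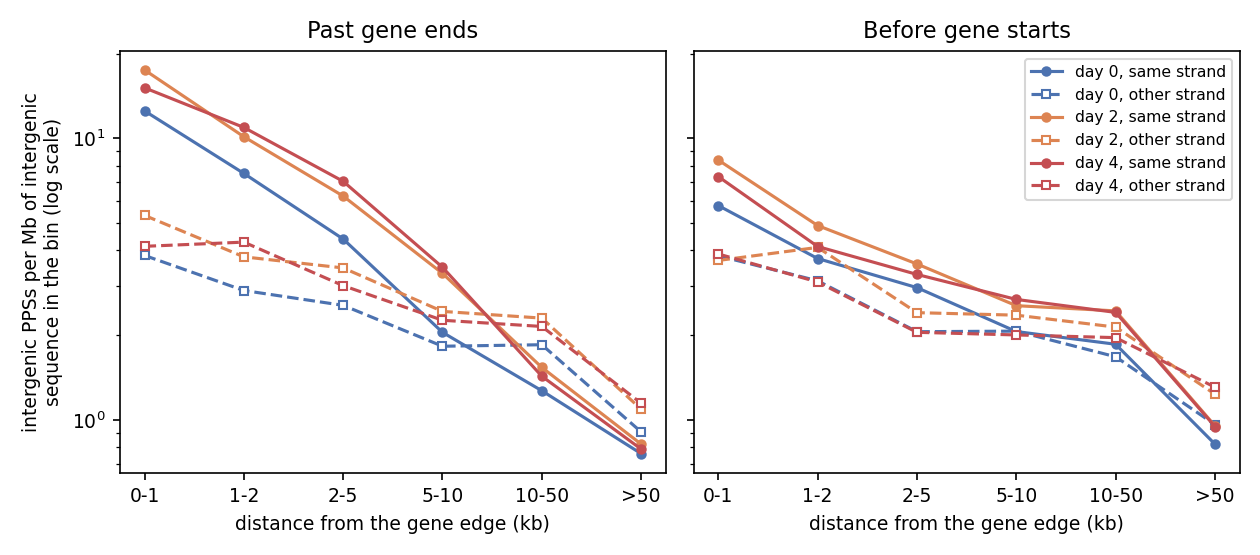
Intergenic PPSs per Mb of intergenic sequence (log axis) in bins of distance past gene ends and before gene starts, by day, on the strand of the gene (filled) and the other strand (open). Past gene ends the sense lines start between 12.5 and 17.5 per Mb and cross the antisense lines beyond 10 kb.

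The distance of readthrough sites from the gene differed between days and nucleases, and these differences were not tested. Over both nucleases, whose mix differed by day, the median was 1970 nt in undifferentiated cells, 2107 nt on day 2 and 2366 nt on day 4. Among ssRNase PPSs it fell in every pair of replicates to day 2 (-75.5 to -11 nt), although the pooled median rose by 21 nt. It rose to day 4 (121 to 236 nt). Among dsRNase PPSs the median rose to both days (250 to 472.5 nt and 512 to 814.5 nt). Members 2 to 10 kb past an end made up 18.5%, 22.4% and 25.1% of the 3 days, and those within 2 kb 18.9%, 20.98% and 20.2%. From day 0 to day 4 the farther class gained 6.52 points (5.98 to 6.43 in pairs of replicates, where a PPS of both replicates counts in each) and the nearer class by 1.27 points (0.963 to 1.83). The whole readthrough share grew by 5.91 points to day 2 (5.43 to 6.98) and by 7.79 points to day 4 (6.95 to 8.25). Among dsRNase PPSs the growth to day 4 was 9.34 points and among ssRNase PPSs 6.13. The share did not pass the test between nucleases: it was 41.3% ± 4.63 for dsRNase and 39.0% ± 3.41 for ssRNase (SD, n = 6), and the difference of 2.27 points ran from -1.45 to 5.26 (exact sign-flip permutation test, two-sided, p = 0.125, Benjamini-Hochberg 0.125).

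Over the 3 days, 94.6% of the 5621 readthrough PPSs had no other gene body between them and the gene end. In 86.3% the gene before them also held a PPS on its own strand within its body on the same day. For antisense members in the same windows the gene held one in 30.8%. Protein-coding genes preceded 69.8% of the readthrough PPSs, processed pseudogenes 6.96% and lincRNAs 6.19%. In RefSeq, another annotation of the same assembly, 19.8% of these sites lay in the body of the gene of the same name, and 29.1% of all members overlapped some RefSeq gene body. With RefSeq bodies also left out, the readthrough share was 36.1% at day 0 and 43.6% at day 4.

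Of protein-coding genes, 995 of 21951 had at least 1 readthrough PPS at some day. The number of such genes was 461, 664 and 552 at the 3 days, with a mean of 2.01, 2.21 and 2.76 PPSs per gene. Both day 4 replicates exceeded both day 0 replicates in 148 of the 995 genes (14.9%), and both fell below in 70 (7.04%). At day 2 the shares were 15% and 5.43%. Of the 995 genes, 543 had only 1 readthrough region. Among the 452 genes with 2 or more regions, 28.3% were higher and 10.8% lower at day 4. Among the 149 genes with 5 or more, 49.0% were higher and 12.8% lower. The shares of all 995 genes set beside the gene lists below are not matched for number of regions. Read depth and RNA amount cannot be told apart from protection in these counts, since more RNA from a gene gives more reads on which to call sites.

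Mcl1, an antiapoptotic BCL2 family member, had the most readthrough regions of the protein-coding genes, 34 on chromosome 3 between 50 and 9780 nt past its end. Its replicates held 8 and 7 PPSs at day 0, 21 and 21 at day 2, and 30 and 22 at day 4, so that the later days did not overlap day 0. Blcap, a small membrane protein, held 3 and 0 at day 0, 9 and 7 at day 2, and 19 and 11 at day 4. Hipk2, a nuclear kinase, held 3 and 4 at day 0, 9 and 6 at day 2, and 19 and 17 at day 4. All 42 Hipk2 PPSs lay inside the RefSeq body of Hipk2, so for that gene they fall within a longer annotated 3′ end, whereas 0 of the 74 Mcl1 PPSs and 0 of the 38 Blcap PPSs did so. The cluster past Mcl1 overlapped another RefSeq gene on the same strand, Gm52627.

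The sharpest gains were past the apolipoprotein L genes Apol11a and Apol11b on chromosome 15. Apol11a held 0 PPSs in both replicates of day 0 and day 2, and 26 and 21 at day 4, between 198 and 5816 nt past its end. Apol11b held 0 and 0 at day 0, 0 and 1 at day 2, and 17 and 20 at day 4. Of these PPSs, 53.6% at Apol11a and 40.9% at Apol11b had a central 32 nt with several genomic copies. Sites around them moved too. Within 500 kb of the Apol11a sites, PPSs of all lengths on both strands, these sites included, numbered 23 at day 0, 92 at day 2 and 246 at day 4.

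Other genes with many readthrough regions changed by fewer PPSs. Brf1, a subunit of the RNA polymerase III initiation factor TFIIIB, held 16 and 9 at day 0 and 20 and 16 at day 4. Rbm15, an RNA-binding protein of the m6A methyltransferase complex, held 9 and 6 at day 0, 13 and 13 at day 2, and 9 and 12 at day 4. Ensa, an inhibitor of the phosphatase PP2A that lies upstream of Mcl1 on the same strand, held 7 and 10 at day 0 and 15 and 14 at day 4. Lcor, a nuclear receptor corepressor, held 6 and 9 at day 0 and 16 and 10 at day 4, Klhl11, a cullin 3 adaptor, 5 and 4 against 13 and 9, and Ctnnd1, a catenin of cell junctions, 2 and 0 against 12 and 5. All PPSs of Rbm15, Lcor, Klhl11 and Ctnnd1, and 79.4% of those of Brf1, lay in the RefSeq body of the same gene. The 15 protein-coding genes with the most regions held 9.60%, 9.56% and 13.9% of readthrough PPSs on the 3 days. Without them the readthrough share was 35.1%, 40.9% and 41.6%.

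The remaining 4 of the 15 were Rbm12b2 (7 and 12 PPSs at day 0, 7 and 8 at day 4), an RNA-binding protein gene, and the predicted genes Gm21860, Gm21748 and Gm47283 on the distal Y chromosome. Gm21860 held 12 and 13 PPSs at day 0 and 16 and 19 at day 4, and Gm21748 held 9 and 10 against 12 and 15. Their central 32 nt had several genomic copies in 98.3% and 100.0% of PPSs, so the same reads may count at more than 1 of these loci. Gm47283 held 9 and 6 at day 0, 11 and 9 at day 2, and 5 and 5 at day 4, with several copies in 93.5%, and for Rbm12b2 that share was 54.5%. Of the Rbm12b2 PPSs, 90.9% lay in the RefSeq body of the same gene.

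**Figure D3:**
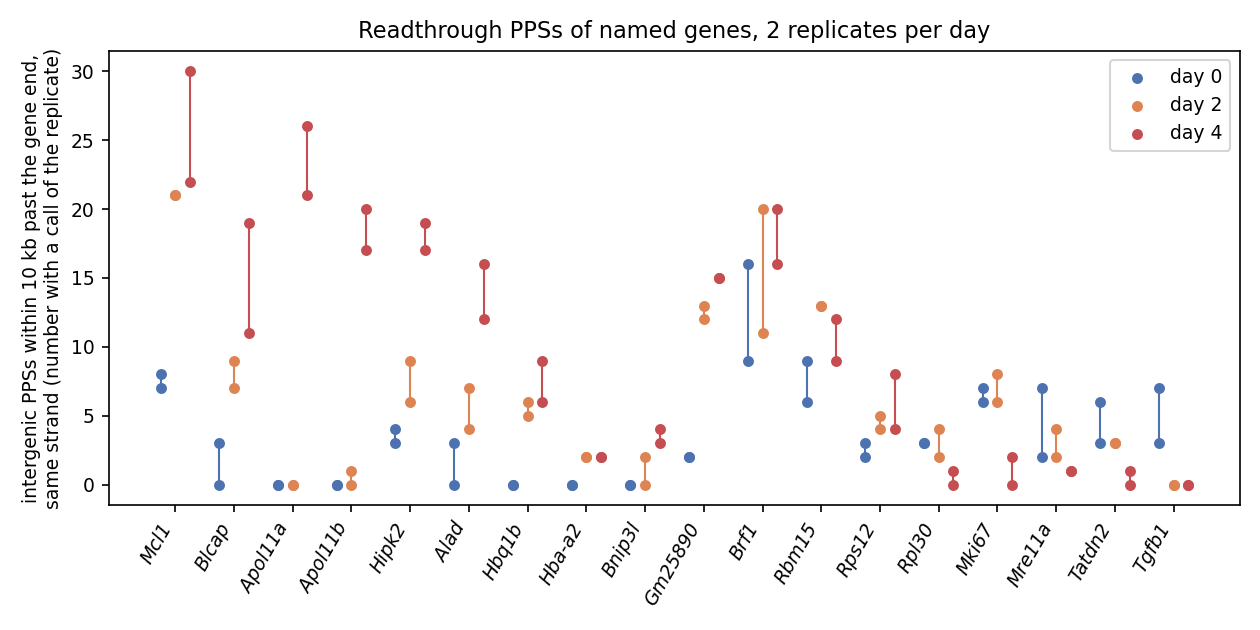
Number of intergenic PPSs within 10 kb past the end of each gene on its strand. Each point is 1 replicate of a day, and lines join the 2 replicates. Apol11a and Apol11b rise from 0 at day 0 to between 17 and 26 at day 4, while Mki67, Tgfb1, Mre11a and Tatdn2 sit at 2 or lower at day 4.

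Globin genes had readthrough sites only after induction. Of the 10 listed globin genes, 6 had such sites, with 0, 13 and 25 PPSs on the 3 days. In both replicates 5 of the 6 were higher at day 4. That share was 14.9% of all protein-coding genes with sites and 49.0% of those with 5 or more regions. The 3 globin genes with the most regions had 14, 6 and 5. The globin genes are not separate loci. Joined over gaps of at most 5 kb, chr11:32283278-32309806 (plus strand) in the alpha-globin locus held 0, 13 and 23 PPSs. That stretch was chosen after its values were seen. Hbq1b, a theta globin gene of the alpha-globin locus on chromosome 11, held 0 and 0 at day 0, 5 and 6 at day 2, and 6 and 9 at day 4. Its sites lay 672 to 8618 nt past its end. Hbq1a held 3 and 5 at day 4 and none before, and Hba-a2, an adult alpha-globin gene, held 0 and 0, 2 and 2, and 2 and 2. Of the 6 PPSs past Hba-a2, 50% had several genomic copies. The paired alpha-globin genes are near-identical, so the assignment of these sites is uncertain. Each site was also credited only to the nearest gene end upstream on its strand. Hba-a2 ends at 32297298 and Hbq1a at 32300873, both on the plus strand, so the sites past Hbq1a lie past Hba-a2 too. From which globin gene the RNA at the Hbq1a and Hbq1b sites ran on was not tested.

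Of 30 listed erythroid genes, 8 had readthrough sites, with 5, 12 and 26 PPSs at the 3 days. At day 4, 3 of the 8 were higher and 0 lower (14.9% and 7.04% of all protein-coding genes with sites), and most of the gain lay at 1 gene, Alad, with 3, 8 and 17 PPSs. Alad, an enzyme of heme synthesis, held 3 and 0 PPSs at day 0, 7 and 4 at day 2, and 16 and 12 at day 4, all of them in its longer RefSeq body. Bnip3l, a receptor for the removal of mitochondria in maturing red cells, held 0 and 0, 0 and 2, and 3 and 4. Gata1, the erythroid master transcription factor, had 1 site at day 0 and 1 at day 2, each in replicate 1.

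Sites past proliferation and histone genes were fewest at day 4. Proliferation genes with sites numbered 4 of 18, with 9, 13 and 2 PPSs on the 3 days. Most of these PPSs lay at 1 gene, Mki67, with 8, 9 and 2. At day 4, 2 of the 4 genes, Mki67 and Mcm3, were lower in both replicates (7.04% of all protein-coding genes with sites). Mki67, which encodes the proliferation antigen Ki-67, held 7 and 6 PPSs at day 0, 6 and 8 at day 2, and 0 and 2 at day 4. Myc, a transcription factor of growth, held 2 and 2 at day 2 and none at the other days. Mcm3, a subunit of the replicative helicase, had 1 site, at day 0. It was a single merged PPS that counts in both replicates. Histone genes had 9, 24 and 3 PPSs over 19 of 78 genes. At day 4, 3 of the 19 were lower and 0 higher (7.04% and 14.9% of all protein-coding genes with sites). Hist2h3c2, an H3 gene, held 1 and 1, 4 and 5, and 0 and 0. Hist1h4k, an H4 gene, had 1, 2 and 0 PPSs at the 3 days, and Hist1h1b, a linker histone gene, 0, 3 and 1.

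Ribosomal protein genes had 47, 33 and 20 PPSs over 31 of 98 genes, with 8 of 31 lower at day 4 (7.04% of all protein-coding genes with sites) and 1 higher (14.9%). The higher one was Rps12, with 2 and 3 PPSs at day 0, 4 and 5 at day 2, and 8 and 4 at day 4. Rpl30 held 3 and 3 at day 0, 2 and 4 at day 2, and 0 and 1 at day 4, and Rps24 held 4 and 3, 1 and 2, and 1 and 1. Of 9 noncoding nuclear RNAs, 3 had sites, with 4, 2 and 2 PPSs in all. These were Malat1, a nuclear speckle RNA (1, 1 and 2 PPSs), and the snoRNA hosts Gas5 (2, 1 and 0) and Snhg1 (1, 0 and 0). Small nuclear RNA genes with sites numbered 8 of 1383, with 8, 17 and 27 PPSs at the 3 days, and 2 of the 8 were higher at day 4 and 0 lower (14.9% and 7.04% of protein-coding genes with sites). Gm25890, an snRNA gene on chromosome 3 (96486555 to 96486719, minus strand), accounted for 25 of their 36 regions, from 3 nt past its end onward, with 2 and 2 PPSs at day 0, 12 and 13 at day 2, and 15 and 15 at day 4. Gm22614, an snRNA gene on the plus strand beside it, held 0 and 0, 1 and 1, and 4 and 3, all with several genomic copies. Gm24076 held 2 and 0 at day 0 and none later.

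Among protein-coding genes, the largest falls from day 0 to day 4 without overlap of the replicates were at Gm21887, Tgfb1, Mki67, Mre11a and Tatdn2. Tgfb1, a secreted growth factor, held 3 and 7 PPSs at day 0 and none at either later day. Mre11a, a nuclease of DNA break repair, held 2 and 7 at day 0, 2 and 4 at day 2, and 1 and 1 at day 4. Tatdn2, a TatD-type DNase, held 3 and 6, 3 and 3, and 0 and 1. Gm21887, a predicted gene on chromosome X, held 15 and 8 at day 0 and 7 and 3 at day 4, and 97.2% of its PPSs had several genomic copies.

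Intergenic sites were clustered. Joined over gaps of at most 1 kb on 1 strand, 5077 of 8364 regions (60.7%) fell into 674 clusters of 3 or more regions, with a median span of 1454.5 nt. Both day 4 replicates exceeded both day 0 replicates in 228 clusters (33.8%) and fell below in 143 (21.2%). A total of 170 clusters held no PPS of day 0, and 50 held PPSs of day 0 alone. The first count pools both later lists and the second rests on a single list, so their sizes cannot be compared directly. Clusters confined to a single later list were fewer than the 50, with 9 for day 2 and 21 for day 4. The cluster with the most regions was at chrX:94880431-94917845 on the plus strand, with 110 regions and replicate counts of 32 and 38 at day 0, 63 and 69 at day 2, and 57 and 50 at day 4. Of its bases, 76.2% were soft-masked repeats and 99.1% of its PPSs had several genomic copies.

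Repeated loci made up 6 of the 10 clusters with the most regions. Those at chrY:90765057-90784025 (minus, 89 regions), chrY:90717752-90734606 (plus, 44), chrY:90717764-90732991 (minus, 43), chr8:20122290-20136342 (plus, 60) and chr4:41882906-41892954 (minus, 44) had several genomic copies in 74.5% to 100.0% of PPSs. The chromosome 4 cluster, 324 nt past Gm13307, held 26 and 24 PPSs at day 0 and 12 and 7 at day 4. The chromosome 8 cluster held 49 and 43 at day 0 and 41 and 39 at day 4, and the first Y cluster 64 and 71 against 68 and 61, so that of these 3 clusters only the last had overlapping groups.

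The other 4 clusters were at loci with few or no further copies. At chr5:136652977-136673620 (plus, 51 regions), 19526 nt before Myl10 and overlapping the RefSeq gene Gm38722, the replicates held 1 and 0 PPSs at day 0, 26 and 28 at day 2, and 46 and 46 at day 4. The cluster past Mcl1 at chr3:95663226-95676073 (plus, 50 regions) held 9 and 7, 32 and 32, and 44 and 32. At chr3:6751551-6767232 (minus, 47 regions), with the pseudogene Olfr289-ps1 inside its span, the counts were 25 and 20, 23 and 25, and 47 and 39. At chr3:37668829-37690050 (plus, 72 regions), 20877 nt past Gm43820, they were 34 and 32, 36 and 38, and 39 and 24, with no order between day 0 and day 4.

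Longer domains appeared when gaps of up to 5 kb were joined, and the domains named from here on were chosen after their values were seen. Past Rybp, 403 regions covered chr6:99994392-100226393 on the minus strand, a span of 232002 nt that starts 2172 nt past the gene end. The replicates held 56 and 35 PPSs at day 0, 194 and 213 at day 2, and 230 and 217 at day 4. The span overlapped the RefSeq genes Gm33448 and 2010109P13Rik on the same strand. The chromosome 5 domain at chr5:136625387-136680554 rose from 11 and 13 PPSs to 60 and 67 and then to 112 and 118. A domain that starts 24868 nt past Mcl1, at chr3:95688044-95734065, held 65 and 57, 72 and 87, and 90 and 86.

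Of the 61 domains with 20 or more regions, 53 had PPSs at all 3 days, 4 had them at day 0 only and 1 at day 4 only. The day 4 domain was the one past Apol11a. The 4 day 0 domains were chr17:91405193-91464990 on the plus strand (91 regions), chr12:77169220-77191588 (45) and chr12:77130084-77158539 (39) on the minus strand, and chr9:58337038-58358906 on the plus strand (27). The chromosome 17 domain held 56 and 57 PPSs in the ssRNase sets and 17 and 23 in the dsRNase sets of day 0, replicates 1 and 2, and 0 in all 8 later call sets. None of its PPSs had several genomic copies of the central 32 nt. The nearest gene upstream on that strand ended 167636 nt before it.

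Lengths of 20 to 40 nt did not change this picture, since PPSs of all lengths in the chromosome 17 domain numbered 96 at day 0 and 0 at day 2 and day 4. Within 500 kb on either side and on both strands they numbered 135, 0 and 0. The 2 chromosome 12 domains held 29 and 27, and 27 and 15, PPSs in the ssRNase sets of day 0, 5 and 15, and 6 and 9, in the dsRNase sets, and none later. They overlapped the RefSeq gene Gm40446, and within 500 kb of the first there were 331, 186 and 205 PPSs at the 3 days, so the surrounding region had sites at every day. The chromosome 9 domain held 16 and 14 ssRNase and 2 and 3 dsRNase PPSs at day 0, with 133, 135 and 99 PPSs within 500 kb.

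**Figure D4:**
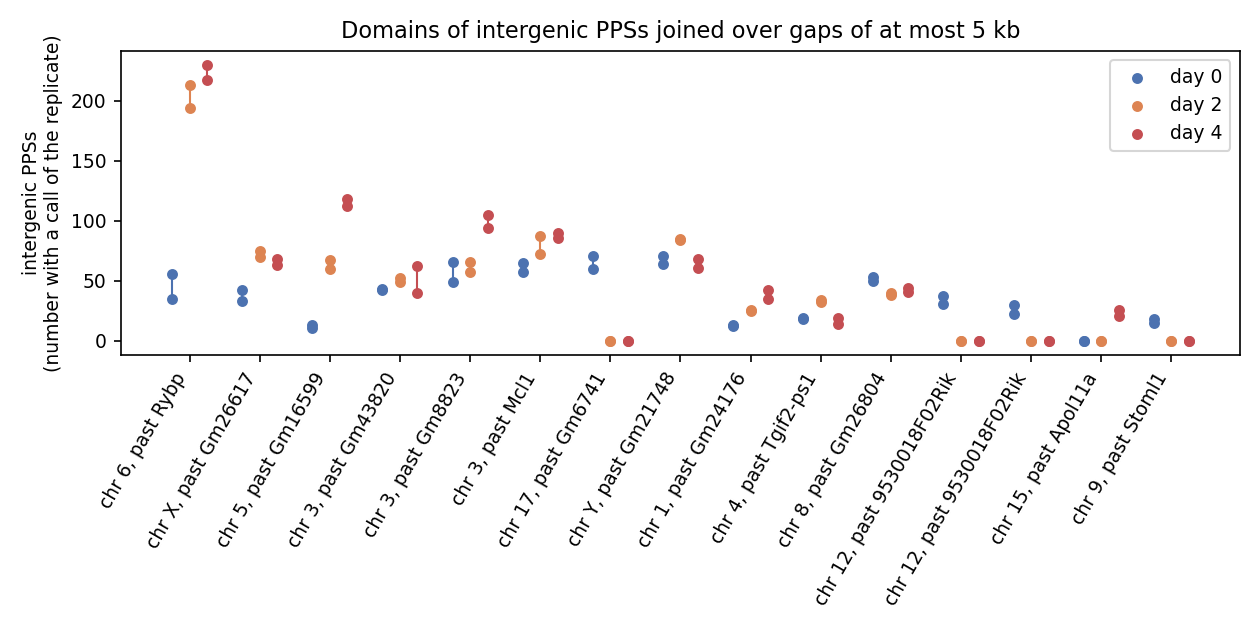
Intergenic PPSs per replicate in 11 of the 12 domains with the most regions and the further domains of 20 or more regions found at 1 day only, labelled by chromosome and the nearest gene that ends upstream on the same strand. The domain past Rybp rises from 35 and 56 PPSs at day 0 to between 194 and 230 later, and the domains on chromosomes 17, 12 and 9 drop to 0 after day 0.

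Most regions were found at 1 day. Of the 8364 intergenic regions, 3044 (36.4%; Wilson 95% interval 35.4 to 37.4) were found at more than 1 day and 1151 (13.8%) at all 3. Genic regions, joined in the same way, were found at more than 1 day in 40.2% and at all 3 in 14.4%. Regions seen only after induction made up 56.2% of intergenic and 49.8% of genic regions, and regions of day 0 only 18.6% and 19.5%. Of day 4 members, 37.9% overlapped a day 0 PPS, against 44.0% of genic PPSs of day 4. The order was not the same for all days: 48.4% of day 4 members overlapped a day 2 PPS against 45.5% of genic ones, 49.7% of day 2 members a day 4 PPS against 47.6%, and 46.2% of day 0 members a day 2 PPS against 44.8%. These intervals cover counting error only.

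**Figure D5:**
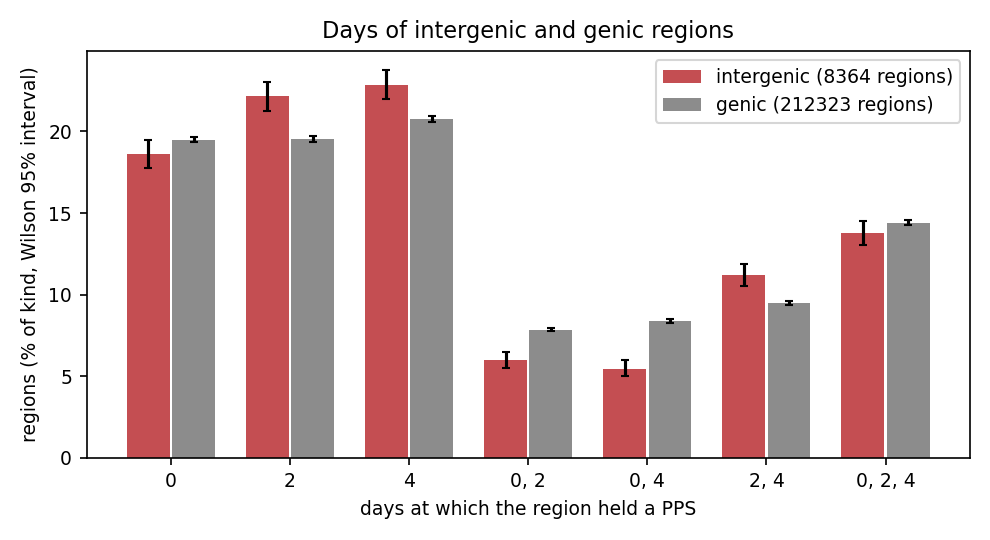
Percentage of 8364 intergenic and 212323 genic regions by the days at which they held a PPS, with Wilson 95% intervals. Regions of days 2 and 4 without day 0 make up 11.2% of intergenic and 9.51% of genic regions.

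Persistent regions differed in position from transient ones. Readthrough regions made up 47.1% of those of 1 day, 43.8% of those of 2 days and 34.7% of those of 3 days. Clustered regions made up 52.3%, 71.3% and 81.8%, and their soft-masked share was 10.4%, 11.6% and 16.4%. A longer region has more chance to overlap a PPS of another day, and the median span grew from 56 to 81 and 116 nt. Among PPSs with 1 genomic copy, 32.1% of regions were found at more than 1 day, against 36.4% of all. Positions were not compared in those PPSs, and none of the differences by number of days was tested.

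The highest-scoring members of each day were long and were found at all 3 days. At day 0 they were chrY:90717785-90718309 (minus, score 147), a PPS of 887 nt that starts 4471 nt past Csnk1g3, a casein kinase gene, on chromosome 18 (score 140), and chrY:90722408-90723645 (plus, score 90.0). At day 2 they were chr7:80708701-80709486 (minus, score 172) and chr7:80709503-80710026 (minus, score 122), 2097 and 1557 nt past Iqgap1, a cytoskeletal scaffold gene, and a PPS of 520 nt at the Csnk1g3 site (score 117). At day 4 they were chrY:90722414-90723409 (minus, score 125), chr3:95700070-95700530 (plus, score 120) in the domain downstream of Mcl1, and chr3:6788844-6789421 (minus, score 117). The last 2 had 1 genomic copy, and the other 7 had between 3 and 50 copies of their central 32 nt. These PPSs were merged from 5 to 16 calls. How the score of a merged PPS was formed is not given in the sources used here, and the lowest score was 5.4 over all PPSs and 10.8 over PPSs of 2 calls.

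Intergenic and genic PPSs were compared in the 6 replicates over 15 measures. In 9 measures every replicate differed in the same direction, with the smallest possible exact sign-flip permutation p of 0.03125 (two-sided, n = 6), but the Benjamini-Hochberg value was 0.0521 in each, so none passed 0.05 after adjustment. Soft-masked bases made up 13.4% of intergenic and 5.81% of genic PPSs, a difference of 7.63 ± 1.38 points (SD, n = 6) that was 1.23 points among PPSs with 1 genomic copy. G+C content was 45.2% and 46.8%. Calls of both replicates were held by 53.6% of intergenic and 48.9% of genic PPSs of a replicate, and single calls made up 43.2% and 47.2%. These differences of 4.67 and -4.08 points were 1.25 and -0.968 points among PPSs with 1 genomic copy, and the first was -1.06 points by dsRNase calls alone. Fewer intergenic PPSs overlapped a PPS of another day (64.8% against 67.2%), and the difference was -0.956 or 0.906 points when 1 replicate of each day was left out. The median length was 67 and 65 nt.

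Sequence words were counted on the strand of the PPS in PPSs of 41 to 100 nt, and words may overlap each other. Runs of TTTTTT were in 2.55% of intergenic and 1.42% of genic PPSs, and a pyrimidine word (NTCTNT with C or T at each N) was in 7.29% and 5.10%. AATAAA was in 2.66% and 2.26%. These 3 were among the 9 measures of 1 direction. Among PPSs with 1 genomic copy, the differences were 0.182 points for TTTTTT in place of 1.13, 1.06 for the pyrimidine word in place of 2.19, and 0.379 for AATAAA in place of 0.396. AAAAAA was in 1.72% and 1.60%, GTGTG in 11.0% and 10.3%, CACACA in 1.57% and 1.29%, the AU-rich word TATTTAT in 0.574% and 0.435%, and GGTTCGA, the core of the tRNA B box, in 0.0835% and 0.0855%. For these 5 the direction differed between replicates.

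Several genomic copies of the central 32 nt were found in 37.6% of day 0, 32.9% of day 2 and 28.3% of day 4 members with 32 nt or more, against 7.94%, 7.56% and 7.41% of genic PPSs. This property was added after the lists were read and was not tested. Chromosomes 19, 3 and Y held 10.8, 9.50 and 9.40 members per Mb over the 3 days and chromosome 14 held 1.35. On chromosome 6, where the domain past Rybp lies, members numbered 253, 462 and 490 at the 3 days.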

How the data were processed

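PIP-seq reads of 24 MEL cell libraries were processed by the authors. Per the submitters' processing notes and the study's methods, adapters were removed with cutadapt 1.2.1, reads were collapsed and aligned to mm10 with TopHat2 2.0.10, allowing up to 10 alignments per read, and PPSs were called at an FDR of 5% with a modified CSAR package. The deposited file of each day lists merged PPSs with coordinates, strand, the names of the merged calls and the authors' enrichment score. The lowest deposited score was 5.4, and a PPS of 2 calls started at 10.8. The lists do not hold read depth per library, and Wilson 95% intervals cover counting error only.

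Gene bodies were the 55450 genes of GENCODE M21, and RefSeq genes and bases came from GRCm38.p6. PPSs of 20 to 40 nt were left out. Distances run from the gene edge to the nearest base of the PPS. Genomic copies were counted as exact matches of the central 32 nt on either strand of 21 chromosomes. Differences were tested over the 6 replicates of the 3 days with exact sign-flip permutation tests, two-sided, with Benjamini-Hochberg adjustment. The series design splits each replicate by nuclease, so nucleases were paired within a replicate. No replicate of a day is linked to one of another day, so changes between days are ranges over 4 pairs of replicates. Named genes were the 15 protein-coding genes with the most readthrough regions, the 3 leading genes of each list, and the 5 largest rises and 5 largest falls whose replicates did not overlap. The 10 clusters with the most regions and the 3 highest-scoring PPSs of each day were named too. Members, lists and rules were chosen with earlier results of these data known. Alternatives are listed with their effect in the closing section. Those on RefSeq genes, on genomic copies and on single replicates of day 0 and day 4 were chosen after seeing the data. Functions were tested on simulated data. Scripts ran under Python 3.11.15 with numba 0.67.0, scipy 1.17.1, matplotlib 3.10.9, pandas 2.3.3 and numpy 2.4.6. One locus among the printed sequences and leading domains is not reported here.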

Additional observations from a re-analysis of the deposited data

Results flagged for a closer look

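The distance of readthrough PPSs changed by unequal amounts for the 2 nucleases between day 0 and day 2. Their median distance past gene ends rose by 345 nt among dsRNase PPSs (250 to 473 nt over the 4 pairs of replicates), while among ssRNase PPSs every pair fell (-75.5 to -11.0 nt) although the pooled median rose by 21 nt. The dsRNase change of the pooled median minus the ssRNase change was 324 nt. The difference was not tested.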

How the results depend on the processing

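The lower intergenic share of dsRNase PPSs kept its sign under every alternative run (-1.42 to -0.9995 points), as did the sense excess past gene ends (9.50 to 24.7 points) and before gene starts (1.60 to 11.8 points). With 1 replicate of each day left out, 3 pairs remain and the smallest exact p is 0.25, so these 3 differences (-1.30 to -1.20, 20.7 to 20.8 and 5.69 to 6.49 points) could not pass the test. Without the pairing (no replicate block), the intergenic share difference of -1.25 points had a permutation p of 0.00926 and the readthrough share difference of 2.27 points one of 0.0556, and 3 of 15 measures (soft-masked bases, TTTTTT and the pyrimidine word) separated intergenic from genic PPSs after adjustment, against 0 with pairing.

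The causes of the following shifts were not tested. With only protein-coding and lncRNA genes as gene bodies, the readthrough difference between nucleases reversed to -1.45 points (exact p = 0.5), the sense excess before starts was 1.60 points (exact p = 0.125), the intergenic share rose by 0.402 points to day 4, and 39.1% of regions were found at more than 1 day. With PPSs of 20 to 40 nt kept, the readthrough difference between nucleases was 3.97 points (exact p = 0.03125), the rises to day 4 were 0.566 points (intergenic) and 6.80 points (readthrough), and 38.0% of regions were found at more than 1 day. In single-call PPSs the nuclease difference was 5.31 points (exact p = 0.03125) and the intergenic rise to day 4 was 0.356 points. In PPSs with calls of both replicates, the intergenic rises were 0.904 points (day 2) and 0.578 points (day 4), the readthrough rise to day 2 was 7.48 points, clusters numbered 268 in place of 674, and 32.7% of regions were found at more than 1 day.

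By ssRNase calls alone, the rises to day 4 were 0.374 points (intergenic) and 6.13 points (readthrough), with 35.2% of regions at more than 1 day. By dsRNase calls alone, the intergenic rises were 0.453 and 1.14 points, the readthrough rises 6.94 and 9.34 points, and that share 21.05%. At 1 kb or more from genes the intergenic rise to day 2 was 0.454 points and the readthrough rise to day 4 was 8.81 points. The readthrough rises were 2.07 and 1.27 points in a window of 2 kb, 3.63 and 4.78 points in 5 kb, and to day 4 5.997 points in 50 kb. Outside RefSeq genes the rises to day 2 were 0.482 points (intergenic) and 7.71 points (readthrough). In PPSs with 1 genomic copy, the readthrough rises were 6.88 and 6.85 points, the intergenic rise to day 4 was 0.696 points, and 32.1% of regions were found at more than 1 day, against 35.1% where an overlap of at least 50% of the shorter PPS was required. With replicates left out, including replicate 2 of day 0 or day 4 alone, the intergenic rises ranged from 0.506 to 0.857 points (day 2) and 0.334 to 0.600 points (day 4), the readthrough rises from 5.43 to 7.59 and 6.55 to 9.47 points, and the share at more than 1 day from 30.8% to 32.8%. The lowest intergenic rises, 0.506 and 0.334 points, and the highest readthrough rises, 7.59 and 9.47 points, were those without day 0 replicate 2. The lists hold no read depth, so what depth limits was not computed.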
